A study of Bos taurus with 14 samples.

Results

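A group of 8 genes of cholesterol synthesis (HMGCS1, IDI1, FDPS, SQLE, LSS, NSDHL, SC5D and DHCR7) was followed in liver and blood neutrophils of Holstein cattle given β-cryptoxanthin, a plant carotenoid from which vitamin A can be formed. The genes were chosen with their day 7 against day 0 changes in liver known, so the liver changes below are a description without a test. The neutrophil changes come from other animals and were no part of that contrast. The comparison of liver with neutrophils on day 0 is another contrast, although its livers also entered the liver changes. Probes were taken where the array gave one of these symbols as the gene name or in its description. HMGCS1, FDPS, NSDHL, SC5D and DHCR7 had such a probe, 1 each and in 1 spot, among 15011 distinct probe sequences. For 4 of these 5 the array held the current symbol. SC5D was found through an older symbol, SC5DL, that RefSeq lists as its synonym, and not by an accession. IDI1, SQLE and LSS had no probe named here and were not analysed. All 5 measured genes code for enzymes of synthesis, and genes of cholesterol uptake are described further on as a list of their own.

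The study measured 14 single-colour arrays of a custom bovine design in 4 groups: liver on day 7, liver on day 0, neutrophils on day 7 and neutrophils on day 0. Animals 58, 61 and 66 gave the 3 livers of each day, and another set, animals 25, 26, 32 and 34, gave the 4 neutrophil samples of each day. All were Holstein heifers or steers with a single labelled oral dose of β-cryptoxanthin, 0.2 mg/kg of body weight on day 0. No animal without the agent was among the samples, and ages are not given. The labels do not state whether day 0 samples were taken before the dose, nor how liver was sampled or neutrophils were purified.

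Cells make cholesterol from acetyl-CoA through mevalonate, isoprenoid diphosphates, squalene and lanosterol, which is then trimmed and desaturated to cholesterol. HMGCS1 acts at the start, IDI1 and FDPS in the isoprenoid stage, SQLE and LSS in making lanosterol, and NSDHL, SC5D and DHCR7 in the steps from lanosterol to cholesterol. In mammals the genes of the pathway are controlled together by sterol regulatory element-binding proteins (SREBPs), membrane-bound transcription factors that are released when cell sterol is low. Liver is a main site of synthesis, while neutrophils are short-lived phagocytes of the blood.

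The probes of NSDHL and FDPS, the genes with the largest liver changes before any correction for spot position, are shown, since each gene rests on a single spot and the sequence states what that spot captured. Both probes were 60 bases long. They are given 5′ to 3′ as the array files hold them, with capitals for every stop codon (TAA, TAG or TGA) in any of the forward frames, and each is printed to the end of the first stop codon of the frame in which it comes latest.
NSDHL: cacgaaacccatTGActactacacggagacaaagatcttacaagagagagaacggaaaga
FDPS: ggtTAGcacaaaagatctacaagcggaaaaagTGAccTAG
The NSDHL probe kept 2 forward frames without a stop codon over its whole length. The FDPS probe kept none, and in no frame did the first stop codon end later than base 40, as shown. A probe without any open forward frame was not rare, at 20.4% of all probe sequences, and HMGCS1 was another. The probes of DHCR7 and SC5D held the letters AATAAA (given strand only), a hexamer found in 11.3% of all probe sequences. The GC content was 40% for HMGCS1, 45.0% for FDPS, 43.3% for NSDHL, 43.3% for DHCR7 and 28.3% for SC5D. Only SC5D lay outside the middle range of all probes, whose 5th and 95th percentiles were 35.0% and 55.0%.

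Levels are given as log2 of the processed spot signal over the 75th percentile of the same array, so a level of 0 equals that percentile. The probes well above background made up 57.1 to 76.7% of the 15208 spots per array. The lowest shares were on the day 7 array of animal 34 in neutrophils (57.1%, with a median signal of 48.2 against 100.2 to 162.9 on the other neutrophil arrays) and, in liver, on the day 7 array of animal 58 (62.7%). The number of arrays limits the precision. The liver arrays shared 1 slide and the neutrophil arrays another, with day 7 in the second and day 0 in the first array row of each. Tissue and slide therefore cannot be told apart, nor can day and array row. Liver arrays held all 9 measured hepatocyte markers well above background, among them ALB and TTR. Neutrophil arrays held all 7 measured neutrophil markers, among them S100A8 and MMP9. Of the hepatocyte markers, ALB, AHSG, AMBP, SERPINA1 and TTR were not well above background on any neutrophil array. APOA2 was well above it on 4 of 4 neutrophil arrays of each day, with mean levels of 0.92 on day 0 and 0.37 on day 7. FGB was well above it on 4 of 4 neutrophil arrays of day 0 and 0 of day 7, TF on 1 of day 0 and FGA on 1 of day 7.

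In liver HMGCS1, FDPS, NSDHL and DHCR7 were each higher on day 7 than on day 0 in 3 of 3 animals, and SC5D in 2 of 3. The mean log2 changes were 1.05 for HMGCS1, 1.25 for FDPS, 1.49 for NSDHL, 1.06 for DHCR7 and 0.12 for SC5D, which are 2.07-fold, 2.38-fold, 2.81-fold, 2.09-fold and 1.09-fold. Over all probes 17.7% were higher on day 7 in every liver animal, and 3.98% passed an adjusted p of 0.05 in either direction by limma with the animal as a block. The 5 genes were picked on this contrast, so nothing is read from their count. The same holds for liver groups given below as not overlapping, from levels without row correction. No share over all probes was computed for these.

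**Figure D1:**
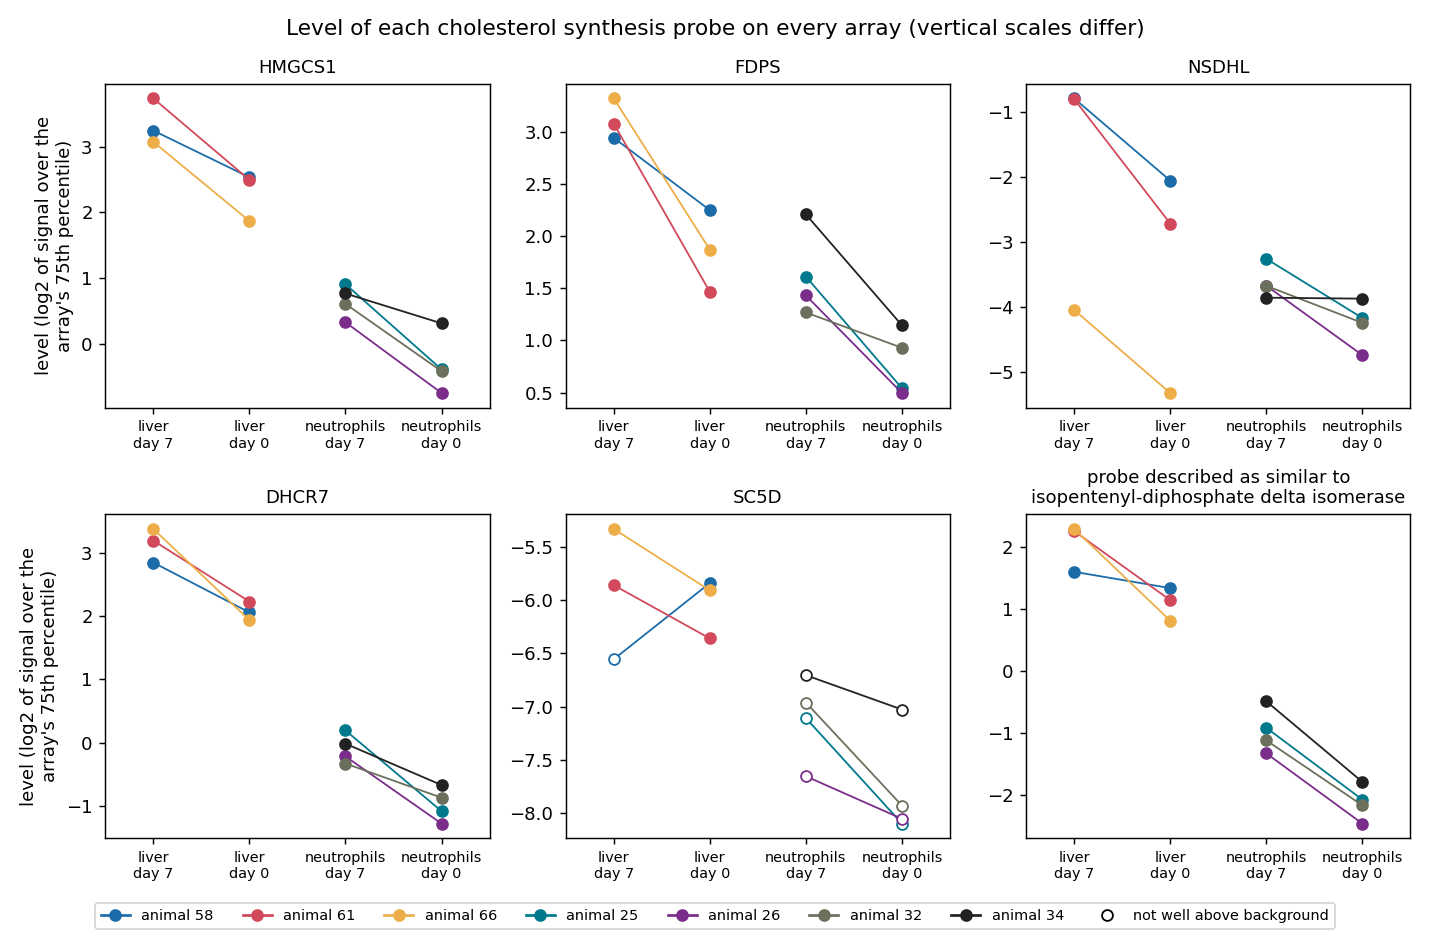
Level (log2 of signal over the 75th percentile of the array) of each probe on every array, with a line joining the 2 days of an animal, filled points where the spot was well above background and open points where it was not. HMGCS1 and DHCR7 step down from liver day 7 over liver day 0 and neutrophils day 7 to neutrophils day 0 with no overlap between groups, NSDHL is set apart by the low livers of animal 66, and SC5D is not well above background on any neutrophil array.

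HMGCS1, the cytosolic enzyme that joins acetyl-CoA and acetoacetyl-CoA to HMG-CoA, had levels of 3.24, 3.73 and 3.07 in livers of animals 58, 61 and 66 on day 7, against 2.53, 2.49 and 1.87 on day 0. Every day 7 liver was above every day 0 liver, and animal 66 was the lowest on both days. In neutrophils of animals 25, 26, 32 and 34 its levels were 0.91, 0.33, 0.61 and 0.77 on day 7, against -0.39, -0.75, -0.41 and 0.31 on day 0. The groups did not overlap here either, although animal 26 on day 7 and animal 34 on day 0 lay next to each other. The changes were 0.71, 1.24 and 1.20 in the livers and 1.30, 1.08, 1.02 and 0.45 in the neutrophil samples, smallest in animals 58 and 34.

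FDPS, which builds geranyl and farnesyl diphosphate, had levels of 2.94, 3.08 and 3.32 in livers of animals 58, 61 and 66 on day 7, against 2.25, 1.47 and 1.87 on day 0. The groups did not overlap, and animal 58 had the highest day 0 and the lowest day 7 level. In neutrophils of animals 25, 26, 32 and 34 it had 1.61, 1.43, 1.27 and 2.21 on day 7, against 0.54, 0.49, 0.93 and 1.14 on day 0. Animal 34 was the highest on both days, and the groups did not overlap. Its changes were 0.69, 1.61 and 1.45 in the livers and 1.07, 0.94, 0.34 and 1.06 in the neutrophil samples, with animals 58 and 32 lowest.

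NSDHL, a sterol dehydrogenase that takes part in removing methyl groups from the sterol ring, was uneven between livers. Its levels were -0.79, -0.80 and -4.05 in livers of animals 58, 61 and 66 on day 7, against -2.06, -2.72 and -5.33 on day 0. Animal 66 was far below the other 2 animals on both days, so the groups overlapped, while the change within each animal was 1.27, 1.92 and 1.28. In neutrophils of animals 25, 26, 32 and 34 the levels were -3.26, -3.68, -3.68 and -3.86 on day 7, against -4.17, -4.75, -4.25 and -3.88 on day 0. The changes were 0.91, 1.07, 0.57 and 0.01, so animal 34 had nearly the same level on both days, and the groups stayed apart by its 0.01 only. Its day 7 array was the one with the lowest median signal (48.2). The spot was well above background on every array of both tissues, also in the livers of animal 66, where its processed signal was 66.6 on day 7 and 31.5 on day 0.

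SC5D, the sterol desaturase of the next-to-last step, was dim throughout. Its levels were -6.56, -5.86 and -5.33 in livers of animals 58, 61 and 66 on day 7, against -5.84, -6.36 and -5.91 on day 0. The groups overlapped, the changes of -0.72, 0.50 and 0.58 differed in sign, and the lowest value was the day 7 liver of animal 58, the only liver where the spot was not well above background. Leaving out each animal in turn gave mean changes from -0.11 to 0.54, so its mean has no settled sign. In neutrophils the probe was not well above background on any of the 8 arrays, and no change is given.

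DHCR7, the reductase that makes cholesterol in the last step, had levels of 2.84, 3.19 and 3.37 in livers of animals 58, 61 and 66 on day 7, against 2.06, 2.23 and 1.93 on day 0. Animal 66 had the lowest day 0 and the highest day 7 level, and the groups did not overlap. In neutrophils of animals 25, 26, 32 and 34 it had 0.20, -0.21, -0.33 and -0.01 on day 7, against -1.08, -1.27, -0.86 and -0.67 on day 0. The groups did not overlap, and animals 25 and 26 had both the lowest day 0 levels and the largest changes. The changes were 0.79, 0.96 and 1.44 in the livers and 1.27, 1.06, 0.54 and 0.65 in the neutrophil samples.

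**Figure D2:**
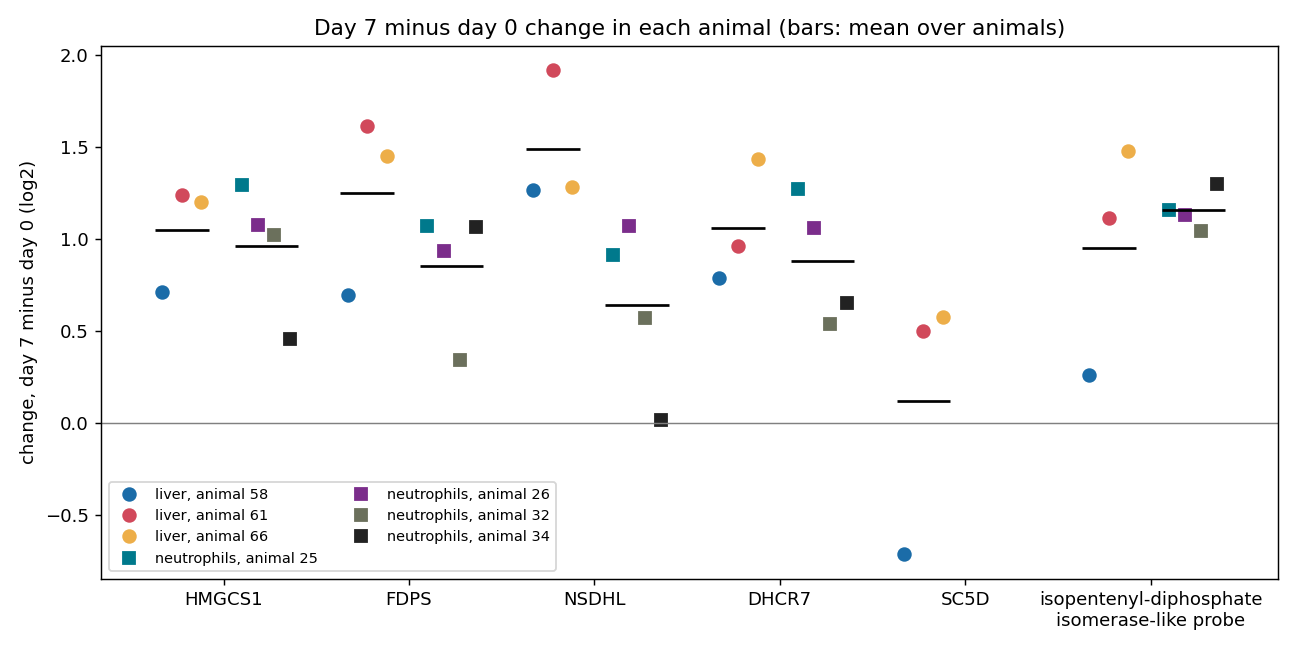
Day 7 minus day 0 change (log2) of each probe in each animal, with circles for livers and squares for neutrophil samples and a bar at the mean over animals. All values of HMGCS1, FDPS, NSDHL and DHCR7 lie above 0 in both tissues, with NSDHL at 0.01 in neutrophils of animal 34, while SC5D (liver only) falls on both sides of 0.

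The neutrophil samples describe how these genes moved in another cell type of other animals. The genes were chosen with earlier results of these data known, so the shares over all probes set beside them here and in the next paragraph are a description. The mean log2 changes in neutrophils were 0.96 ± 0.26 for HMGCS1 (1.95-fold), 0.85 ± 0.25 for FDPS (1.81-fold), 0.64 ± 0.27 for NSDHL (1.56-fold) and 0.88 ± 0.25 for DHCR7 (1.84-fold), with the standard error of limma's fit and n = 4 animals. All 4 were higher on day 7 in 4 of 4 animals, where 11.3% of probes were. None of them passed the test over all probes, with limma adjusted p = 0.309 for HMGCS1, 0.311 for FDPS, 0.373 for NSDHL and 0.311 for DHCR7. Before adjustment 3 of 4 (all but NSDHL) were under a p of 0.05, where 8.81% of all probes were under it and higher. No probe of the 9450 tested passed after adjustment in neutrophils (0%), while 1268 (13.4%) were under an unadjusted p of 0.05. An exact two-sided sign-flip test of 4 animals cannot go below p = 0.125, which is what each of these 4 genes gave.

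Among all probes tested in neutrophils, the changes of HMGCS1, DHCR7, FDPS and NSDHL stood at the 95.9th, 94.5th, 93.9th and 88.4th percentile, so each lay in the upper part of the spread and none at its end. Every day 7 array stood above every day 0 array for these 4 genes in neutrophils, against 4.9% of probes. All 4 probes were well above background on every neutrophil array, so the filter on dim spots did not pick them by their day 7 level.

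Markers of other blood cells moved with day in the neutrophil samples. The summed level of the 5 T cell markers was 3.61 to 5.20 on day 7, against 2.07 to 3.34 on day 0, in multiples of the 75th percentile of the array. That of the 3 B cell markers was 2.06 to 2.61 on day 7, against 1.38 to 1.93 on day 0. Neither sum overlapped between the days, but none of the genes passed the test, and each sum was led by 1 gene, CD3E for T cells and CD79A for B cells, both well above background on all 8 arrays. The median change was 0.13 over the 5 T cell markers, from -0.45 for LCK to 0.77 for CD3E, and 0.74 over the 3 B cell markers. In animal 34 the medians of the 2 lists were -1.06 and -0.06, and 1 gene of each list was higher on day 7 in every animal. The summed level of the 7 neutrophil markers was 317 to 757 on day 7, against 406 to 475 on day 0, and that of the 2 measured monocyte markers was 62.8 to 163.6 against 87.4 to 143.0. The part of these cells in the changes of the cholesterol genes was not tested. Fewer cells of a type and less RNA per cell cannot be told apart in bulk samples.

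Markers moved with day in liver as well. The summed level of the 8 skeletal muscle markers (ACTA1, MYL1, CKM, MB, TNNC2, TNNT3, MYH1 and TNNC1) was 3.92 to 15.6 on day 7, against 0.0273 to 0.119 on day 0, and 8 of 8 were well above background on every day 7 array, against 0 to 2 of 8 on a day 0 array. That of the 9 hepatocyte markers was 968 to 1303 on day 7, against 710 to 838 on day 0, and that of the 7 neutrophil markers was 2.43 to 2.87 on day 7, against 3.72 to 9.73 on day 0. The 3 lists did not overlap between the days. Their part in the liver changes of HMGCS1, FDPS, NSDHL and DHCR7 was not tested.

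The spot's position on the array moved with the liver change. Over all probes tested in liver, the median change was 0.53 in the first 16 spot rows, 0.09 in the next 24, -0.04 in the middle of the array, -0.09 in the 24 rows after it and -0.38 in the last 16. FDPS lies in row 11, NSDHL in row 28, DHCR7 in row 57, SC5D in row 91 and HMGCS1 in row 156. Probes within 5 rows of FDPS had a median change of 0.37 in liver, against 0.08 around NSDHL, 0.00 around DHCR7, -0.03 around SC5D and -0.08 around HMGCS1. With a smooth row trend removed from each array, the liver change of FDPS was 0.68, and those of the others were 1.33 for NSDHL, 1.02 for DHCR7, 1.09 for HMGCS1 and 0.11 for SC5D. The FDPS change was thus 1.25 before and 0.68 after, the largest shift of the 5. In livers of animals 58, 61 and 66 it was 0.10, 1.02 and 0.94 after the removal. In neutrophils the median change of the same row bands ran from -0.09 to -0.05, and the trend removal left FDPS at 0.83, NSDHL at 0.63, DHCR7 at 0.86 and HMGCS1 at 0.96.

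**Figure D3:**
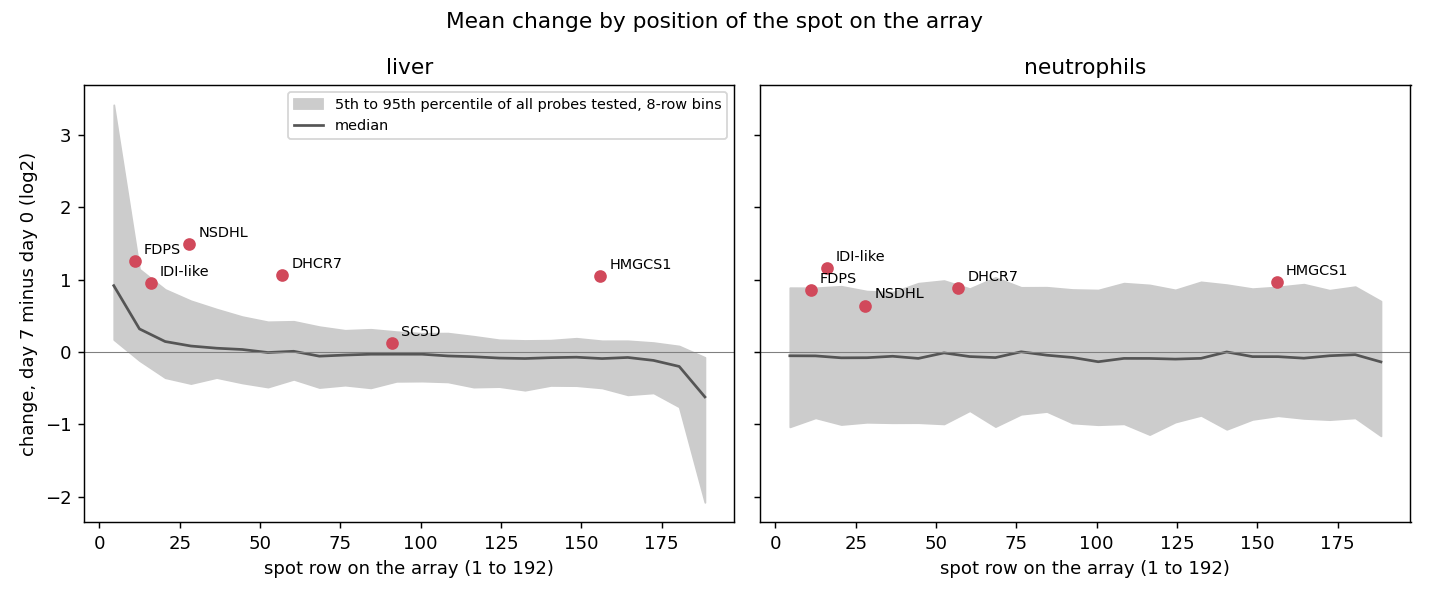
Mean day 7 minus day 0 change (log2) of the cholesterol synthesis probes (points) against the row of their spot, over the median (line) and the 5th to 95th percentile (grey) of all probes tested in 8-row bins. In liver the grey band bends up in the first and down in the last rows, with FDPS in row 11 on the bend, while the neutrophil band is flat (IDI-like marks the probe described as similar to isopentenyl-diphosphate delta isomerase).

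A probe that the array describes as similar to isopentenyl-diphosphate delta isomerase carries no symbol and is not counted among the 8 genes, but bears on IDI1, the enzyme that interconverts the 2 isoprenoid units. Its levels were 1.60, 2.25 and 2.29 in livers of animals 58, 61 and 66 on day 7, against 1.33, 1.14 and 0.81 on day 0. In neutrophils of animals 25, 26, 32 and 34 they were -0.92, -1.33, -1.12 and -0.49 on day 7, against -2.07, -2.46, -2.16 and -1.79 on day 0. Before any row correction the groups did not overlap in either tissue. In neutrophils 4.9% of probes had every day 7 array above every day 0 array, and no such share was computed in liver. The neutrophil changes were the most even of all these probes, from 1.05 to 1.30. The mean change was 1.16 ± 0.23 in neutrophils (limma adjusted p = 0.298, unadjusted p = 0.00149) and 0.95 in liver. Its row is 16, and the removal of the row trend left 0.54 in liver. The liver changes of animals 58, 61 and 66 were then -0.16, 0.67 and 1.12, so they differed in sign. Another probe, described as similar to sterol-C5-desaturase-like and lying in row 109, changed by 0.33 in liver (0.09 to 0.51 in the 3 animals) and by 0.57 ± 0.31 in neutrophils (limma adjusted p = 0.441), where 1.53 in animal 34 stood far above 0.15 to 0.43 in the others.

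The levels on day 0 place the genes in both tissues. DHCR7 was 3.04 ± 0.19 log2 units higher in liver than in neutrophils (SE, limma adjusted p = 1.2e-06), which is 8.24-fold, with means of 2.07 in 3 livers and -0.97 in 4 neutrophil samples. HMGCS1 was 2.61 ± 0.29 higher (6.09-fold, limma adjusted p = 4e-05), with means of 2.30 in liver and -0.31 in neutrophils. FDPS was 1.08 ± 0.25 higher (2.12-fold, limma adjusted p = 0.0034), with means of 1.86 in liver and 0.78 in neutrophils. Its difference was 1.73 with the row trend removed (limma adjusted p = 0.000155). Of all probes, 39.7% passed as higher and 43.4% as lower in liver. Every liver stood above every neutrophil sample for these 3 genes, as for 39.2% of probes. NSDHL did not pass, at 0.89 ± 0.70 higher in liver (limma adjusted p = 0.26), with means of -3.37 and -4.26. Its difference moved with the liver left out. It was 1.87 without animal 66 (limma adjusted p = 0.000819), 0.57 without animal 61 (0.533) and 0.24 without animal 58 (0.754). The call for NSDHL thus depends on which livers are compared. SC5D was well above background on 3 of 3 livers and on 0 of 4 neutrophil samples of day 0. No difference is given for it, because the neutrophil level is only a bound and the mean liver level lies under the mean of the lowest signals well above background on the neutrophil arrays.

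From high to low, HMGCS1 and DHCR7 had the order liver day 7, liver day 0, neutrophils day 7 and neutrophils day 0, with no overlap between neighbours. FDPS had the same order of means, but livers of day 0 (1.47 to 2.25) overlapped with neutrophils of day 7 (1.27 to 2.21). NSDHL also had this order of means, but the livers of animal 66 placed both liver groups across the neutrophil range, so no neighbours were apart except the 2 days in neutrophils. On day 7 the difference between liver and neutrophils was 3.22 for DHCR7, 2.70 for HMGCS1, 1.48 for FDPS and 1.74 for NSDHL. Tissue cannot be told apart from slide in any of these values.

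Over all arrays, with the row trend removed and values centred within tissue, HMGCS1 followed the mean of the other 3 genes most closely (r = 0.94, against 0.76 for DHCR7, 0.61 for FDPS and 0.47 for NSDHL). These r values describe 14 arrays that share their days and animals. The liver day change on which the genes were chosen stays in them, so they and the rankings below are no test. The named genes most like the mean of the 4 were PRDX6 (r = 0.85), CYB5B (0.85), ALDH18A1 (0.84), MRPL19 (0.84) and ACADS (0.83), out of 3716 probes with a symbol that were well above background on all arrays. That mean is led by NSDHL, whose spread over the liver arrays was 1.79 (SD), against 0.47 to 0.68 for the others. Without NSDHL, a setting chosen after seeing the data, the closest were GARS1 (r = 0.93), ASNS (0.89), RPSA (0.87), WARS2 (0.84) and CYB5B (0.83). GARS1 and WARS2 code for aminoacyl-tRNA synthetases and ASNS for asparagine synthetase. They lie in rows 5, 9 and 8, in the band where liver changes were raised over all probes, and had neutrophil changes of 0.70 for GARS1 and 0.81 for ASNS.

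Of 54 other genes of cholesterol and fatty acid metabolism, 29 had a probe. None of the 29 tested in liver and none of the 23 tested in neutrophils passed an adjusted p of 0.05 by limma, while 11 and 3 were under an unadjusted p of 0.05, as were 17.9% of all probes in liver and 13.4% in neutrophils. Background rates for passing were 2.67% higher and 1.31% lower in liver and 0% in neutrophils. The median change of the 8 other synthesis genes was 0.46 in liver, with 7 of 8 positive, and -0.02 over 7 genes in neutrophils, with 3 of 7 positive. Over all probes tested the medians were -0.04 in liver and -0.07 in neutrophils, with 4687 of 10935 and 4212 of 9450 positive. Before any row correction, the measured synthesis genes beyond the 8 had positive changes in liver, GGPS1 excepted (-0.10). In neutrophils their changes lay on both sides of 0.

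**Figure D4:**
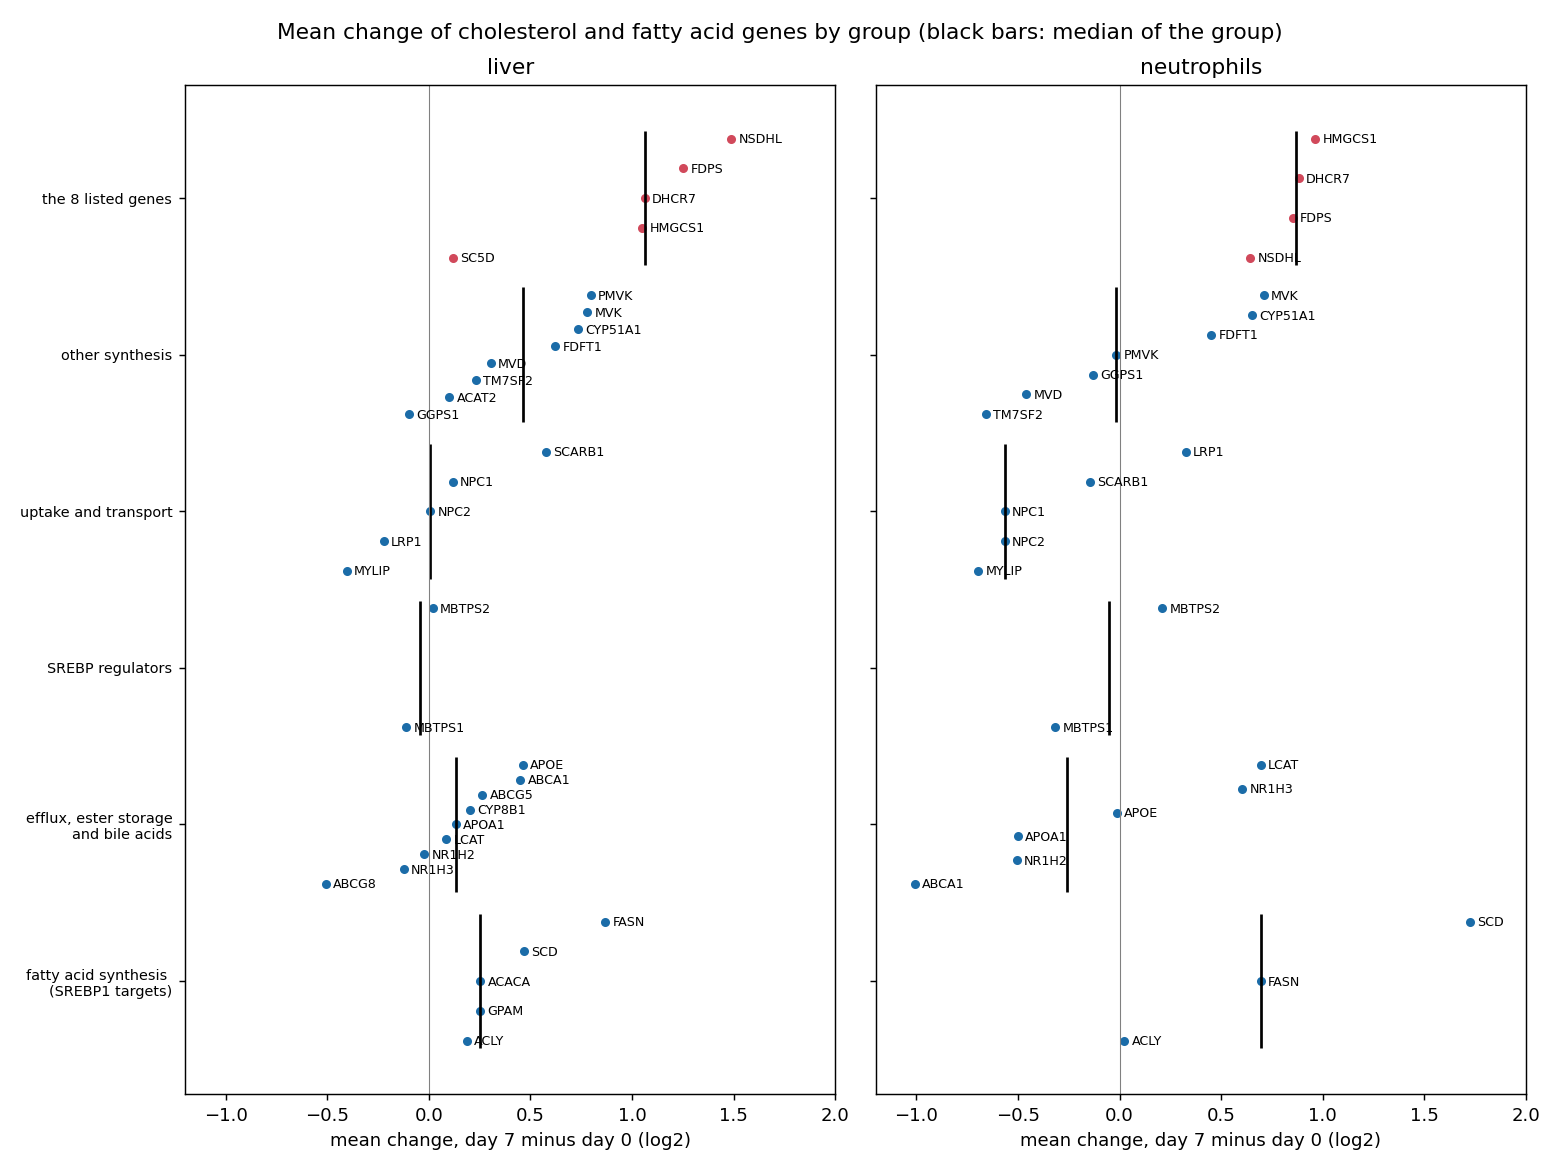
Mean day 7 minus day 0 change (log2) of each gene tested, by group, in liver and in neutrophils, with a black bar at the group's median. Of the 8 listed genes, the means of the 5 measured in liver and of the 4 in neutrophils lie right of 0. That of SC5D in liver (0.12) comes from changes of both signs. The other synthesis genes have a median of 0.46 in liver and -0.02 in neutrophils.

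PMVK, a kinase that acts after mevalonate kinase, had 0.80 ± 0.22 in liver (limma adjusted p = 0.162) and -0.02 ± 0.25 in neutrophils (0.98). MVK, the mevalonate kinase, had 0.78 ± 0.14 in liver (limma adjusted p = 0.066) and 0.71 ± 0.36 in neutrophils (0.418). CYP51A1, the demethylase that first acts on lanosterol, had 0.73 ± 0.15 in liver (limma adjusted p = 0.0921) and 0.65 ± 0.40 in neutrophils (0.468), where 3 of 4 animals were higher on day 7. MVK lies in row 10 and PMVK in row 11, beside FDPS and in the raised band of the liver arrays, and with the row trend taken out their liver changes were 0.18 and 0.23 (limma adjusted p = 0.671 and 0.715). CYP51A1 lies in row 35 and had 0.62 (0.256). ACAT2 and MVD lie in rows 188 and 186, among the last rows, where liver changes were lowered. There the removal raised the liver change from 0.10 to 0.53 for ACAT2 and from 0.30 to 0.69 for MVD.

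Genes of uptake and transport had a median of 0.01 in liver over 5 genes and -0.56 in neutrophils over 5. SCARB1, the receptor for high-density lipoprotein, had 0.57 ± 0.12 in liver (limma adjusted p = 0.0921) and -0.14 ± 0.29 in neutrophils (0.83). LRP1, an endocytic receptor for lipoprotein remnants, had -0.22 ± 0.10 in liver (limma adjusted p = 0.35) and 0.33 ± 0.38 in neutrophils (0.696). MYLIP, a ubiquitin ligase that limits lipoprotein uptake, had -0.40 ± 0.12 in liver (limma adjusted p = 0.194) and -0.69 ± 0.29 in neutrophils (0.362). None of these uptake genes passed in either tissue.

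Of the SREBP regulators only MBTPS1 and MBTPS2, the proteases that release SREBPs from the membrane, had a probe. Their changes were -0.11 and 0.02 in liver and -0.32 and 0.21 in neutrophils, and neither passed. Efflux, ester storage and bile acid genes had a median of 0.13 in liver over 9 genes and -0.26 in neutrophils over 6. ABCG8, a half-transporter that exports sterols to bile, had -0.51 ± 0.11 in liver (limma adjusted p = 0.102) and was not well above background on any neutrophil array. APOE, an apolipoprotein of lipoprotein remnants, had 0.46 ± 0.11 in liver (limma adjusted p = 0.11) and -0.02 ± 0.35 in neutrophils (0.987). ABCA1, which exports cholesterol to apolipoprotein A1, had 0.45 ± 0.13 in liver (limma adjusted p = 0.169) and -1.01 ± 0.45 in neutrophils (0.382).

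Genes of fatty acid synthesis that SREBP1 is known to control had medians of 0.25 over 5 genes in liver and 0.70 over 3 in neutrophils. FASN, the fatty acid synthase, had 0.87 ± 0.18 in liver (limma adjusted p = 0.0916) and 0.70 ± 0.36 in neutrophils (0.427). SCD, the stearoyl-CoA desaturase, had 0.47 ± 0.27 in liver (limma adjusted p = 0.474) and 1.72 ± 0.34 in neutrophils (limma adjusted p = 0.298, unadjusted p = 0.00131), with changes from 0.99 to 2.53 in the 4 neutrophil animals. Its neutrophil groups did not overlap, with every day 7 array above every day 0 array, as for 4.9% of probes. ACACA, which makes malonyl-CoA, had 0.25 ± 0.13 in liver (limma adjusted p = 0.4), and in neutrophils it was well above background on 2 of 4 day 7 and 3 of 4 day 0 arrays and was not tested.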

How the data were processed

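Total RNA of liver and peripheral neutrophils was labelled with Cy3 after linear amplification, per the labels. Arrays were read with Agilent Feature Extraction 9.5, per the submitters' processing notes, and its processed spot intensities were deposited after background subtraction, per the file headers. The deposited mean and background intensities, used for an alternative, are uncorrected pixel values, and the flags and spot rows are other columns of the same software. The authors' value table holds log2 values that equal log2 of the deposited processed signals minus a constant per array (r = 1, column medians -3.55 to -2.69), which settles its scale, centring and direction. No genome build was needed, and no coordinates are printed.

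Control spots and outlier spots (0 to 18 per array) were left out. Levels are log2 ratios of the processed signal to the array's 75th percentile, averaged over spots of 1 sequence. Of 15011 sequences 6973 were named, from their accession, gene number or symbol, with RefSeq names of the assembly ARS-UCD2.0, and 8038 were not. A probe was tested if all arrays of 1 or more of the groups compared had it well above background. The day 7 and day 0 arrays of a tissue were fitted with limma 3.58.1 in R 4.3.3, with the animal as a block, since the labels name the same animals on both days. Paired deviations from the group means correlated at 0.66, 0.36 and 0.68 in liver and 0.63, 0.36, -0.02 and 0.25 in neutrophils. Livers and neutrophil samples of day 0 were compared without a block. P-values are two-sided, adjusted by Benjamini-Hochberg over all probes tested, with a threshold of 0.05. The method was tested on simulated data.

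The 8 genes, the pathway lists and the marker lists were chosen with earlier results of these data known. Some genes of the pathway lists are not reported here. Named were all probes of the 8 genes and, of each pathway list, any gene past the threshold and up to 3 with the largest absolute liver change. Some further genes are named where a statement about their list depends on them. Alternatives were no block, normexp with an offset of 50 and quantile normalization, quantile normalization alone, the values deposited by the authors, a stricter and no filter on dim spots, removal of a lowess trend (span 0.2) over spot rows, inner rows alone, each animal left out and a threshold of 0.1.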

Additional observations from a re-analysis of the deposited data

Results flagged for a closer look

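In 5 cases a single animal stood apart from the rest of its group, by a gap to the nearest value beyond the 95% critical value for 4 samples. Chance gives about 1 such case in 20 groups, and 63 groups were checked. SC5D in neutrophils of day 0 was at -7.03 in animal 34, with the other 3 between -8.10 and -7.93, and the spot was below the background criterion on all of these arrays. CYP51A1 had a change of -0.82 in neutrophils of animal 34, while it was positive in the other 3 animals. MYLIP in neutrophils of day 0 was at 3.61 in animal 26. MBTPS2 in neutrophils of day 0 was at -2.69 in animal 26. ACACA had a change of 0.92 in neutrophils of animal 32, from a spot that was not well above background on all arrays.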

How the results depend on the processing

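The liver changes of HMGCS1, NSDHL and DHCR7 were positive in every alternative run (0.95 to 1.22, 1.11 to 1.60 and 0.87 to 1.20), with NSDHL lowest after normexp and quantile normalization (1.11), and FDPS ran from 0.68 with the row trend removed to 1.53 without animal 58. The median of the measured genes in liver was 1.06, and 0.59 in the inner rows, where only DHCR7 and SC5D lie. In neutrophils none of the 4 genes, no other pathway gene and no probe (0 in 13 alternatives) passed, with adjusted p from 0.203 to 0.778 for the 4 genes, changes from 0.30 to 1.13, and no replicate block giving 0.424 for HMGCS1, FDPS and DHCR7 and 0.449 for NSDHL. The count of liver probes called was 435. It was 210 with no replicate block, 42 with the row trend removed, 0 in the inner rows, 0 with no filter on dim probes, 788 at an adjusted p of 0.1, and 0 to 164 with 1 animal left out (0 without animal 58, 98 without 61, 164 without 66). Other pathway genes called in liver numbered 0, against 2 (MVK and FDFT1) with normexp and quantile normalization, 2 (again MVK and FDFT1) when a spot had to be well above background on all arrays, and 5 at an adjusted p of 0.1. Between liver and neutrophils on day 0, 9559 probes passed, with HMGCS1, FDPS and DHCR7 among them and NSDHL not. No call is given for SC5D, whose neutrophil values were below background. In the inner rows, where fewer probes were tested, 5599 of 6758 probes passed, DHCR7 among them. For the other changes of count the cause was not tested. SC5D was at the limit of what its signal over background can show.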
